A study of Mus musculus with 30 samples.

Results

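The 8 genes described here write, copy and remove methylation on DNA: the methyltransferases Dnmt1, Dnmt3a and Dnmt3b, their partners Dnmt3l and Uhrf1, and the dioxygenases Tet1, Tet2 and Tet3. They were taken by gene symbol, 8 of the 54393 genes with a deposited RPKM value and 8 of the 25626 genes with spliced reads, and all 8 were among the 13938 genes tested. The splicing table lists 515 events in them, of which 22 had enough reads for at least 1 test.

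RNA selected for polyA tails was sequenced from mouse CGR8 cells, an embryonic stem cell line, at 3 stages: stem cells (ESC), embryoid bodies at day 8 (EB8), which were formed without LIF and received 6 µM retinoic acid on 2 occasions, and cultures enriched for glutamatergic neurons 7 days after plating on coated dishes (DIV7). At each stage the parental line (WT) and 4 lines edited with CRISPR-Cas9 were sampled: Puf60_mEx5_HOM, with homozygous loss of exon 5 of the splicing factor Puf60; Puf60_pEx5_HOM and Puf60_pEx5_HET, in which that exon is made constitutive homozygously or heterozygously; and Rbm38KO, with a deletion in the RNA-binding protein gene Rbm38. WT cells carry no edit, and all 5 lines went through the same differentiation. Each of the 15 groups had 2 libraries, A and B (n = 2 throughout). The study mentions independent clones, but no label ties a library to a clone, so p-values measure the spread between these libraries, which may be technical.

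Dnmt3a and Dnmt3b place methyl groups on unmethylated cytosines, mostly in CG dinucleotides, and Dnmt3l is a catalytically inactive partner that stimulates them. Uhrf1 binds the hemimethylated CG sites left by replication and brings Dnmt1, which copies the pattern to the new strand. Tet enzymes oxidise 5-methylcytosine to 5-hydroxymethylcytosine and further products that can be removed, and brain tissue is known for abundant 5-hydroxymethylcytosine.

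Exons and start regions both bear on the results. Shown here are 2 exons whose inclusion differed between stages, the 1 tested exon of Tet3, and 2 of the start regions of Dnmt3a. The exons are shown as spliced RNA in DNA letters, 5′ to 3′, from GENCODE transcripts on GRCm38 (mm10), with the alternative exon in capitals between 30 bases of each neighbouring exon. The 24-nt microexon of Tet2 at chr3:133479342-133479365 on the minus strand is exon 7 of 12 in the transcript Tet2-204, lies inside the coding sequence and is held by 1 of 4 coding transcripts. It is shown because it switched from mostly included to mostly skipped.
Tet2 with the microexon: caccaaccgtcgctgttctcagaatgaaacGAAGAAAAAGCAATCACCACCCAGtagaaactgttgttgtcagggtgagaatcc
Tet2 without it: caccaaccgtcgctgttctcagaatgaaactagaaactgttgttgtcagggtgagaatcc

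The Dnmt3b exon at chr2:153670849-153670908, plus strand, is 60 nt long, lies inside the coding sequence of 6 of 10 coding transcripts and is exon 11 of 24 in Dnmt3b-201. The splicing table lists it with the same start and a length of 17 nt, and its annotated sequence is shown because the exon changed between stages.
Dnmt3b exon: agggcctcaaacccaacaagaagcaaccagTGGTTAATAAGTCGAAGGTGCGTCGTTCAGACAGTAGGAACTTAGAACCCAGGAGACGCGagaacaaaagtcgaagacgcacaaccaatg
The 57-nt Tet3 exon at chr6:83441217-83441273, minus strand, is exon 3 of 12 in Tet3-203, and is shown as the 1 tested event of Tet3, which no comparison called.
Tet3 exon: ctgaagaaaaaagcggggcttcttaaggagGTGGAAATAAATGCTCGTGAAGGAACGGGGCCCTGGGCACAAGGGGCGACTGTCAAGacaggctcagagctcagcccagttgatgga
The lengths of these 3 exons, 24, 60 and 57 nt, are multiples of 3.

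Dnmt3a is known to be made in a long form from an upstream start and a short form from an internal start. The 250 bases before each of these RefSeq starts (GRCm38.p6, plus strand) are shown with every CG, the dinucleotide that these enzymes act on, in capitals. The upstream window is chr12:3806730-3806979, before the start at 3806980, and the internal window is chr12:3891494-3891743, before the start at 3891744.
Dnmt3a upstream start: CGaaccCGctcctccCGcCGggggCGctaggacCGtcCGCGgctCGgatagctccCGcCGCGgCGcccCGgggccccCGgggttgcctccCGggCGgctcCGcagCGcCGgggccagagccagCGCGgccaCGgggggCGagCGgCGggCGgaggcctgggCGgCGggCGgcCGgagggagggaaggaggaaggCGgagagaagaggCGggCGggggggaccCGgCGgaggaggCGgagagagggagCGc
Dnmt3a internal start: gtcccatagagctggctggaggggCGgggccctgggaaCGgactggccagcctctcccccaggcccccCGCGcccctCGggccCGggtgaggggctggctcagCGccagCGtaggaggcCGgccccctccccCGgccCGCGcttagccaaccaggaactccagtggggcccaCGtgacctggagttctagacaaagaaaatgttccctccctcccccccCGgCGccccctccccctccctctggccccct
The motif searched was the letters CG, which read the same on both strands and cannot overlap each other. The upstream window held 38 and the internal window 15, against a median of 6 in 32851 RefSeq promoter windows of that length. Of all these windows, 1.9% held 38 or more and 27.3% held 15 or more. Another RefSeq window of Dnmt3a, before the start at 3807160, overlaps the upstream window and is not printed. It held 40, and 1.3% of all windows held as many or more. That start lies inside intron 1 (chr12:3807121-3835026), so RNA begun there has no reads over intron 1. RefSeq windows were found for 8 of the 8 genes, 15 windows in all.

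At ESC the libraries held 28375996 to 38571969 spliced reads, against 26152711 to 30675968 in embryoid bodies and 23204150 to 28655479 in neurons. Rbm38 had 0 spliced reads in the 6 Rbm38KO libraries. The summed level of 9 pluripotency markers was 4022 to 5930 CPM (normalised spliced reads, scaled per library) in stem cells, 22.4 to 55.3 in embryoid bodies and 46.3 to 250 in neurons. That of 10 neuronal markers was 220 to 327, 836 to 2271 and 4297 to 5300 CPM, in that order. At DIV7 the summed markers of 7 astrocyte genes reached 467 to 1241 CPM and of 7 fibroblast and smooth muscle genes 283 to 4312 CPM, so the cultures held RNA typical of other cells too. In bulk RNA, fewer cells of a type and less of an RNA per cell cannot be told apart.

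Per unit of length, Dnmt3l and Dnmt3b led the family in WT stem cells and were its lowest members in WT neurons, where Dnmt3a was the highest. The authors' RPKM in WT ESC was 261 for Dnmt3l, 172 for Dnmt3b, 158 for Uhrf1, 91.3 for Dnmt3a, 89.8 for Dnmt1, 71.1 for Tet1, 10.8 for Tet2 and 2.20 for Tet3. At EB8 the WT order was Dnmt3a (56.8 RPKM), Uhrf1 (55.9), Dnmt1 (49.2), Tet3 (14.6), Tet1 (7.46), Tet2 (6.35), Dnmt3b (4.91) and Dnmt3l (1.3). At DIV7 it was Dnmt3a (39.9 RPKM), Dnmt1 (30.6), Tet3 (10.9), Uhrf1 (9.82), Tet1 (6.80), Tet2 (5.13), Dnmt3b (1.77) and Dnmt3l (0.58). These values are 1 per group with no spread. Some neighbours change places between lines: in ESC, Dnmt1 lay above Dnmt3a in the 4 edited lines (86.0 to 93.9 against 62.9 to 85.5 RPKM), and Uhrf1 lay above Dnmt3b in Puf60_pEx5_HET, Puf60_pEx5_HOM and Rbm38KO.

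**Figure D1:**
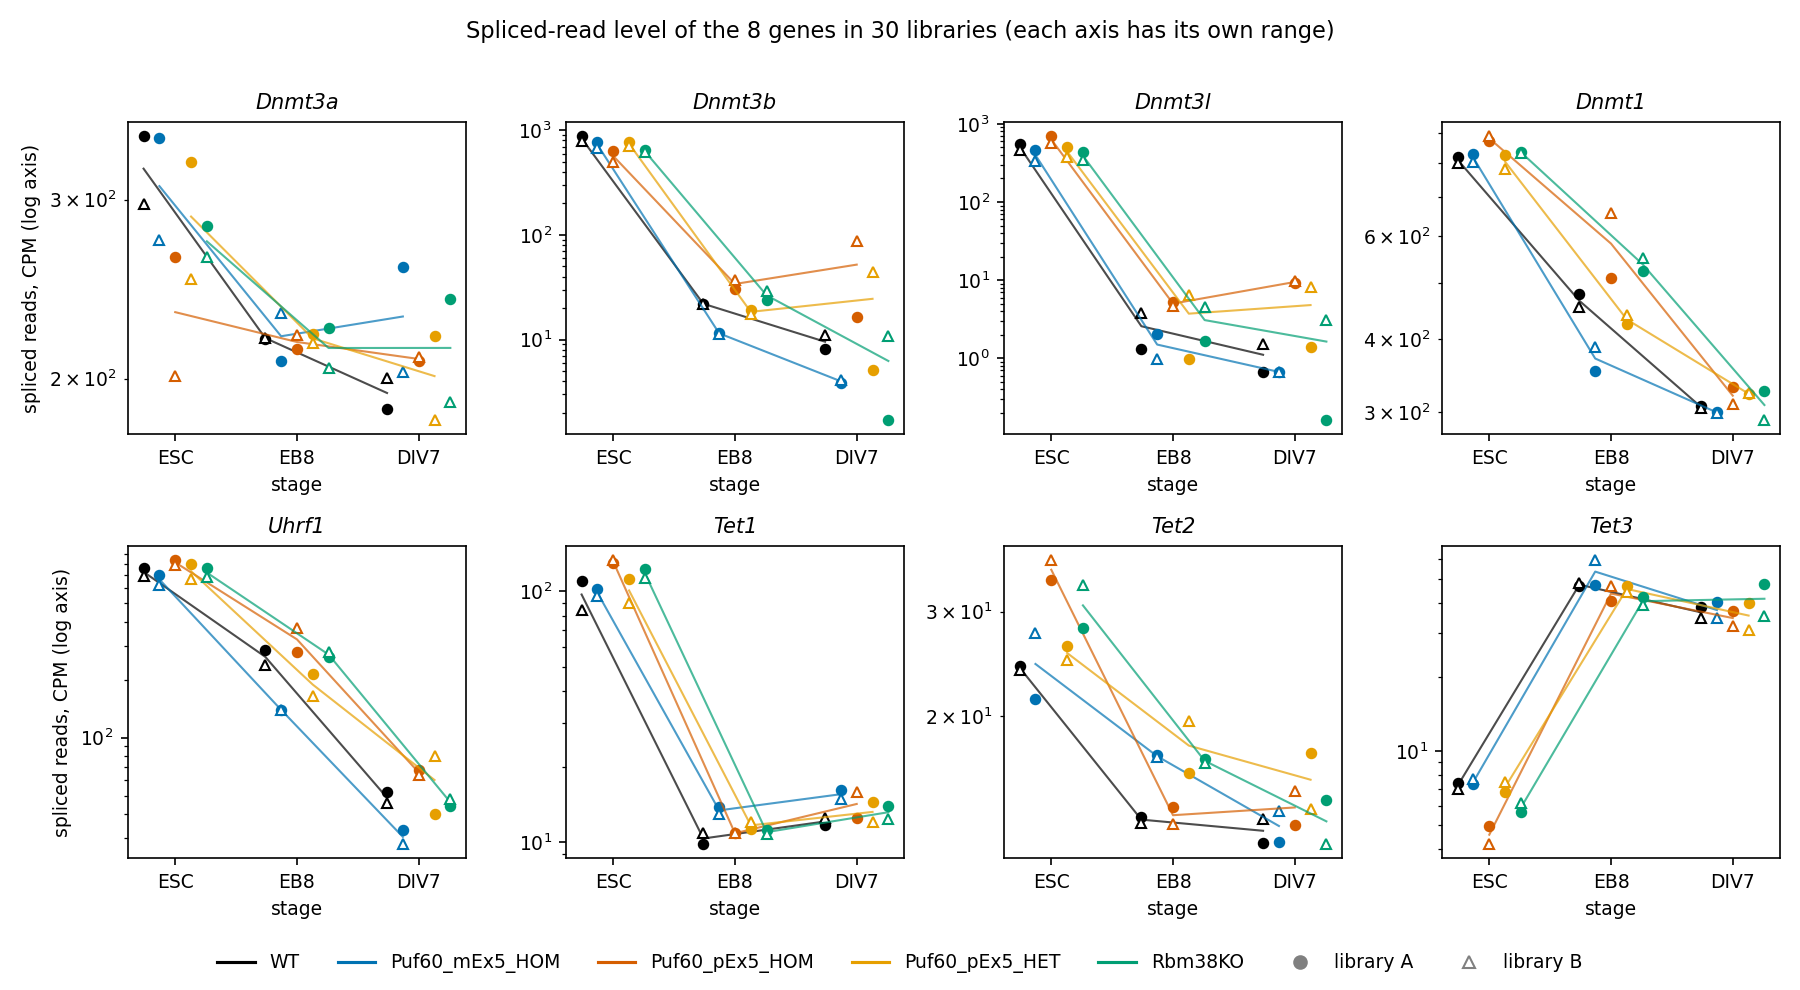
Level of each of the 8 genes in the 30 libraries, as normalised spliced reads (CPM) on a log axis, by stage and line, with library A and library B as separate points and lines through the group means. Dnmt3b, Dnmt3l and Tet1 are highest in ESC in every line, Tet3 is lowest there, and Dnmt3b at DIV7 spreads from 1.70 to 87.6.

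From ESC to EB8 the WT cells lost most of their Dnmt3l, Dnmt3b and Tet1 RNA and gained Tet3. With libraries scaled by median of ratios, Dnmt1, Dnmt3a and Tet2 stayed within 2-fold. Of the 8 genes, 4 were called lower (18.2% of all genes tested were) and 1 higher (21.7% of all genes). The WT libraries of the stages did not overlap for 8 of 8, nor for 90.5% of all genes, so separation alone says little at this step. Calls here need at least a 2-fold change and an adjusted p below 0.05 (Benjamini-Hochberg, over all genes) from limma, fitted to all 30 libraries. Differences are given as log2(CPM + 1), a scale that shrinks the change of weakly expressed genes.

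Among the de novo genes, Dnmt3l was at 558 and 456 CPM in the WT ESC libraries and at 1.31 and 3.85 CPM in those at EB8. The stages did not overlap in any line, and the WT difference was -7.24 ± 0.66 (log2, SE; adjusted p = 1.8e-08), the fourth lowest of 13938 genes. Dnmt3b, which carries catalytic activity of its own, went from 884 and 788 CPM to 21.9 and 22.1 CPM, a difference of -5.18 ± 0.77 (adjusted p = 9.8e-06). Its 10 ESC libraries, at 502 to 884 CPM, all lay above the 10 EB8 libraries, at 11.4 to 37.4 CPM. Dnmt3a was at 347 and 297 CPM in ESC and at 219 and 220 CPM at EB8. These WT libraries did not overlap, but the difference of -0.55 ± 0.15 (adjusted p = 0.0023) was under 2-fold.

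Of the maintenance pair, Dnmt1 was at 821 and 801 CPM in WT ESC and 477 and 453 CPM at EB8. The stages were apart by -0.80 ± 0.09 (adjusted p = 3.3e-08), under 2-fold. Puf60_mEx5_HOM was the line in which Dnmt1 was called lower at this step, with 830 and 803 CPM against 353 and 389 CPM and a difference of -1.14. Uhrf1 fell in WT from 758 and 694 CPM to 287 and 239 CPM, by 1.47 on the log2 scale (SE 0.21, adjusted p = 2.9e-06), and was called in 5 of 5 lines, with differences from -2.24 to -1.34.

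Of the oxidases, Tet1, the main Tet gene of stem cells, fell from 110 and 84.1 CPM to 9.85 and 10.9 CPM in WT (-3.10 ± 0.13, adjusted p = 2.1e-15). In all 5 lines its ESC libraries were above its EB8 libraries, and the differences were -3.48 to -2.79. Tet2, which lacks the CXXC domain of the other Tet proteins, was at 24.3 and 23.9 CPM in ESC and 13.5 and 13.2 CPM at EB8 (-0.81 ± 0.13, adjusted p = 7.7e-06), under 2-fold in WT. It was called lower in Puf60_pEx5_HOM, from 33.9 and 36.7 CPM to 14.1 and 13.2 CPM (-1.31). Tet3 rose in WT from 7.46 and 7.03 CPM to 46.5 and 48.1 CPM (2.55 ± 0.14, adjusted p = 2.9e-13), and its ESC and EB8 libraries were separate in 5 of 5 lines (2.51 to 3.0).

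The scaling of libraries bears on the smaller of these differences. The main scaling, the median of ratios, put the median of all genes at 0.03 between WT EB8 and ESC. Scaling to the total of spliced reads put it at 0.42 and quantile normalization at -0.07, and the share of called genes that were higher was 54.3%, 74.1% and 47.9% under the 3 scalings. Dnmt3b, Dnmt3l and Tet1 were called lower, and Tet3 higher, in 5 of 5 lines under each of the 3. Uhrf1 was at -0.98 in WT with total scaling and at -0.79 with quantile normalization, and was then called in 2 of 5 lines. Tet2 was called lower in 0 of 5 lines with total scaling and in 3 of 5 with quantile normalization. With the latter it was at -1.07 in WT (adjusted p = 4.63e-07), past 2-fold. Dnmt1 was at -0.31 and -0.04 and Dnmt3a at -0.06 and -0.02 in WT with total scaling and quantile normalization. Some other lines had a value above 0 for Dnmt3a with both and for Dnmt1 with quantile normalization. The call of Dnmt1 in Puf60_mEx5_HOM was lost under both, with 0 of 5 lines called.

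**Figure D2:**
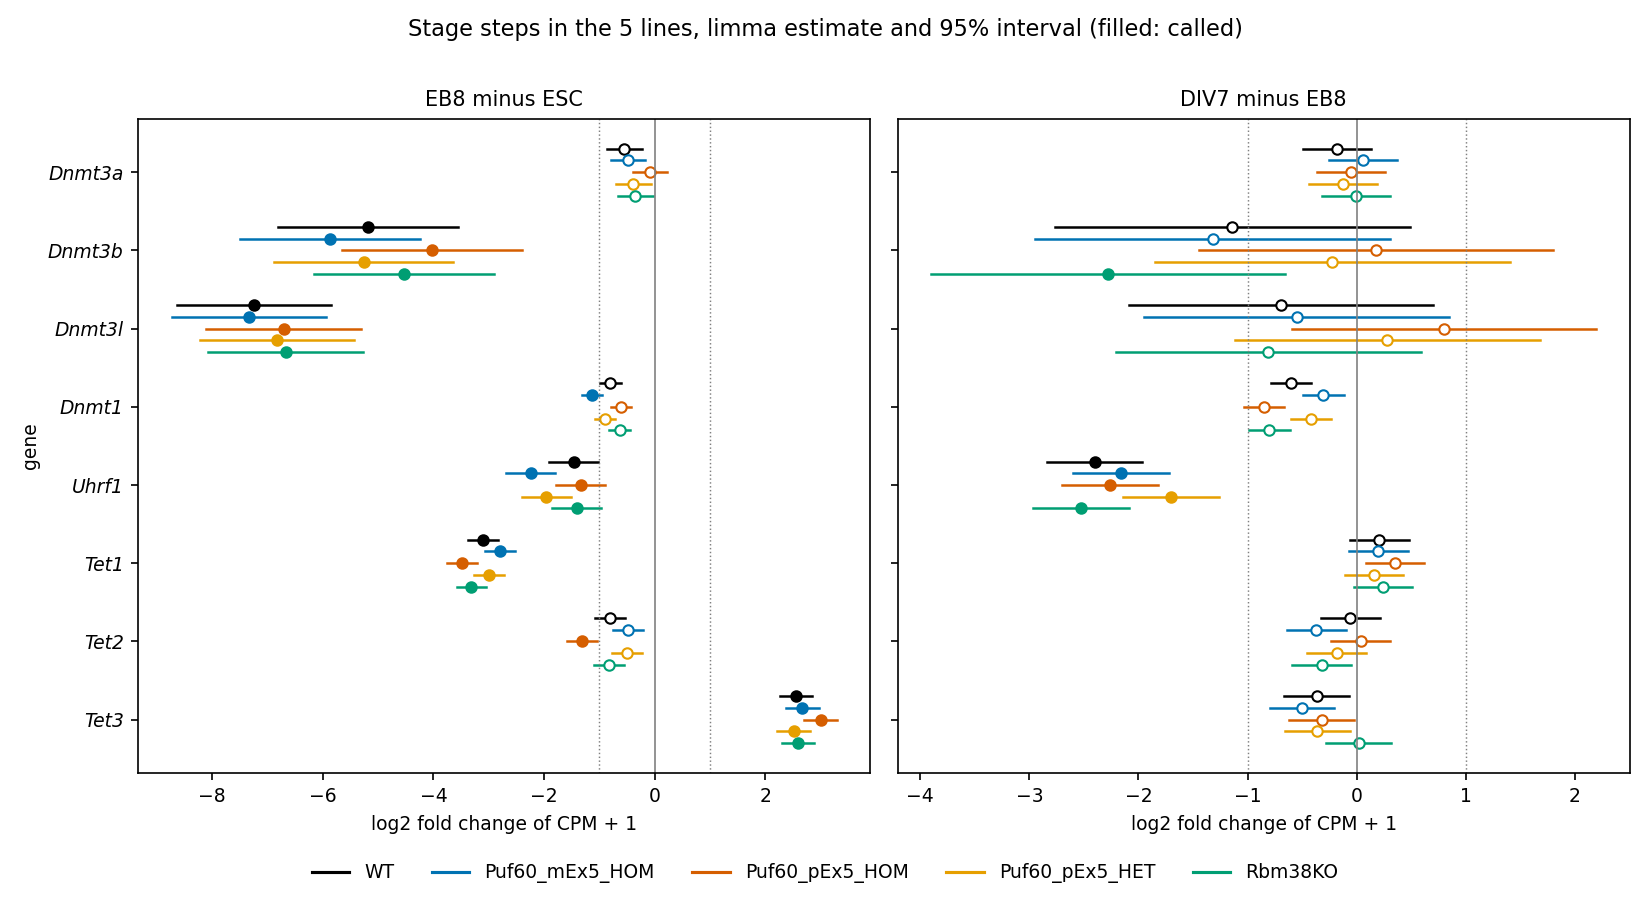
Log2 difference between consecutive stages for each gene in each of the 5 lines, with bars for the 95% interval of the fit, filled points for calls and dotted lines at a 2-fold change. Dnmt3l, Dnmt3b and Tet1 lie far below 0 from ESC to EB8 and Tet3 above it, while Uhrf1 is the gene below the 2-fold line in all lines from EB8 to DIV7.

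From EB8 to DIV7 the family changed less, and Uhrf1 was the 1 gene called in WT. Of the 8 genes, 1 was lower (12.7% of all genes) and 0 were higher (17.6% of all genes). Uhrf1 fell from 287 and 239 CPM to 51.9 and 45.6 CPM (-2.40 ± 0.21, adjusted p = 4.5e-09), and was called in 5 of 5 lines under each of the 3 scalings. Over the lines Uhrf1 changed by -2.52 to -1.70 with the median of ratios, -2.71 to -1.91 with total scaling and -2.9 to -2.01 with quantile normalization. Dnmt1, the enzyme it recruits, was at 307 and 305 CPM in WT neurons, below both EB8 libraries by 0.60 ± 0.09 on the log2 scale (adjusted p = 3e-06), under 2-fold. Tet3 was at 38.5 and 34.5 CPM at DIV7, 0.37 ± 0.14 below EB8 (adjusted p = 0.026), under 2-fold. The median of all genes at this step was 0.02, -0.11 and -0.08 under the 3 scalings (median of ratios, total of spliced reads, quantile), and 58.1%, 49.2% and 49.8% of the called genes were higher.

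The other genes did not pass the test in WT at this step. Dnmt3a was at 187 and 200 CPM (-0.18, adjusted p = 0.29), Tet1 at 11.7 and 12.6 CPM (0.21, adjusted p = 0.16) and Tet2 at 12.2 and 13.4 CPM (-0.06, adjusted p = 0.7). Dnmt3b was at 8.14 and 11 CPM (-1.14 ± 0.77, adjusted p = 0.19) and Dnmt3l at 0.679 and 1.55 CPM (-0.70, adjusted p = 0.36). In Rbm38KO, Dnmt3b was called lower, from 23.7 and 29.3 CPM to 1.70 and 10.8 CPM (-2.28, adjusted p = 0.013). Over both steps and 5 lines, 33 of 80 gene and step pairs were called. Over all genes and lines 40.8% were called, in either direction, from ESC to EB8 and 31.4% from EB8 to DIV7.

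The introns of Dnmt3a that were used changed at both steps, while its summed spliced reads changed by less than 2-fold at each step. That sum covers all introns, including those whose reads rose. The authors' RPKM of Dnmt3a in WT was 91.3 at ESC, 56.8 at EB8 and 39.9 at DIV7. From EB8 to DIV7 the log2 ratio of that RPKM was -0.51, against -0.18 for the summed reads of Dnmt3a. Reads were counted over each of its introns, and introns 1 to 6 lie upstream of, or span, the internal start shown above (intron 6, chr12:3873429-3895542, spans it). In the WT ESC libraries the mean of introns 1 to 6 was 7.18% and 9.22% of the mean of introns 7 to 22, at EB8 28.3% and 28.7%, and at DIV7 110% and 115%. The stages did not overlap over the 5 lines: 7.18% to 15.3% in 10 ESC libraries, 24.5% to 31.6% in EB8 libraries and 100.5% to 122% in DIV7 libraries. In WT the upstream introns had a mean of 46.2 normalised reads in stem cells, 103 in embryoid bodies and 280 in neurons, while the shared introns went from 570 to 361 and 248.

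limma's diffSplice, which sets each intron against the others of its gene, was run on 121727 introns, 141 of them in these 8 genes. From ESC to EB8 it called 4 of the 141 in WT, all higher (0.595% of all introns were called), and from EB8 to DIV7 it called 5, all higher (0.585% of all introns). At the earlier step these were Dnmt3a introns 2, 3 and 4 (1.25, 1.72 and 1.45, adjusted p = 2.3e-08, 3.6e-15 and 5.3e-11) and Tet2 intron 6 (1.21, adjusted p = 1.3e-07), whose reads are also those of microexon skipping. At the later step they were Dnmt3a introns 2 to 6, at 1.27, 1.35, 1.3, 1.42 and 1.41. The mean WT reads of intron 3 went from 43.5 at ESC to 164 and 429, and those of intron 1, the lowest of the 6, from 19.7 to 34.8 and 84.3. RNA from the RefSeq start at 3807160 does not use intron 1, and the share of each upstream start was not tested.

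Tet1 showed a change at intron 2 (chr10:62864862-62878151, minus strand), numbered in the direction of transcription. Its reads were 107% and 103% of the mean of introns 3 to 12 in WT ESC, 20.6% and 40.5% at EB8, and 12.3% and 0% at DIV7. Over the 5 lines the ESC libraries (97.5% to 108%) lay above those at EB8 (15.9% to 60.9%), which overlapped the DIV7 libraries (0% to 16.1%) narrowly. In normalised reads, WT had 312 and 230 over intron 2 as stem cells, 5.82 and 12.4 as embryoid bodies and 4.17 and 0 as neurons. diffSplice gave -0.71 (adjusted p = 0.0044) and -0.43 (adjusted p = 0.32) for the 2 steps, under 2-fold on the log2(CPM + 1) scale. With 0.1 in place of 1 added to the CPM the values were -1.56 (adjusted p = 0.000118) and -1.60 (adjusted p = 7.11e-05), past the threshold.

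Within intron 2 the splicing table lists an 83-nt Tet1 exon at chr10:62865483-62865565, minus strand, which overlaps no exon of the GENCODE annotation. Its percent spliced in (PSI) was 0.15% and 0.22% in WT ESC, 54.8% and 23.1% at EB8 and 72.4% and 100% at DIV7, on 22 to 327 reads. PSI sets the average of an exon's 2 junctions against the reads that skip it, so it is not a plain share of reads. Over the lines the ranges were 0% to 0.27%, 22.2% to 54.8% and 52.4% to 100%, of which the last pair overlaps. Its 2 junctions were not alike: over the 30 libraries 336 reads joined it to the downstream exon and 1 read to the upstream exon, with 3159 reads skipping it. Thus its PSI here counts almost only reads that leave the exon on the downstream side. In the WT EB8 libraries 17 and 9 reads joined it downstream, 0 upstream, and 7 and 15 skipped it. Averaging with the empty upstream junction lowers such intermediate PSI values.

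Splicing was tested by a weighted limma fit on log ratios. Events needed 10 reads or more in each library fitted and a mean PSI of 5% to 95%, and were called at an adjusted p below 0.05 and 10 points. In WT, 3 of 17 events of these genes were called from ESC to EB8 (13.4% of all events were) and 1 of 15 from EB8 to DIV7 (16.5%). The 83-nt Tet1 exon gained 38.8 points (adjusted p = 4.7e-06) and then 47.2 points (adjusted p = 0.042). Without library B of WT at DIV7 the second value was 33.4 points (adjusted p = 0.149), and without library B of WT at EB8 31.4 points (adjusted p = 0.267), both short of the threshold. In Puf60_mEx5_HOM and Rbm38KO the second step was 47.9 points (adjusted p = 0.012) and 53.6 points (adjusted p = 0.0042). It did not pass in Puf60_pEx5_HET (43.5 points, adjusted p = 0.079) or Puf60_pEx5_HOM (18.3 points, adjusted p = 0.28).

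The Tet2 microexon went from included to skipped. Its PSI was 95.1% and 96.0% in WT ESC, 10.9% and 7.17% at EB8, and 3.12% and 0% at DIV7, on 39 and 47, 26 and 23, and 17 and 15 reads. ESC stood apart from the later stages in every line: 87.8% to 100% in 10 libraries, against 0% to 12.5% at EB8 and 0% to 10.9% at DIV7, which overlap. The event was called lower from ESC to EB8 in 5 of 5 lines, by -86.5 points in WT (adjusted p = 6.1e-06) and -93.5 to -87.4 points in the others, where 14.2% of all events and lines were called. Over the 30 libraries 439 reads joined the upstream exon to the microexon, 139 the microexon to the downstream exon and 398 skipped it.

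The Dnmt3b exon followed a course that turned back. In WT its PSI was 98.2% and 98.9% in stem cells, 13% and 28.3% at EB8 and 55.1% and 80.1% at DIV7. The ESC libraries (97.2% to 98.9% on 1715 to 2977 reads) lay above those at EB8 (5.63% to 35.2% on 33 to 140 reads) in every line, and the WT difference was -77.9 points (adjusted p = 1.0e-11), with -83.9 to -70.4 points over the lines. At DIV7 libraries ranged from 33.3% to 100% on 2 to 244 reads, too few for the test of the later step. The DIV7 libraries with the most spliced reads of Dnmt3b as a whole were near the ESC value. They were at 100% and 96.0% in Puf60_pEx5_HOM, and at 93.8% in library B of Puf60_pEx5_HET against 58.1% in its library A. Reads of the exon event did not always go with this. Library B of Rbm38KO was at 70.0% on 39 such reads, while library A of Puf60_pEx5_HOM had 35.

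**Figure D3:**
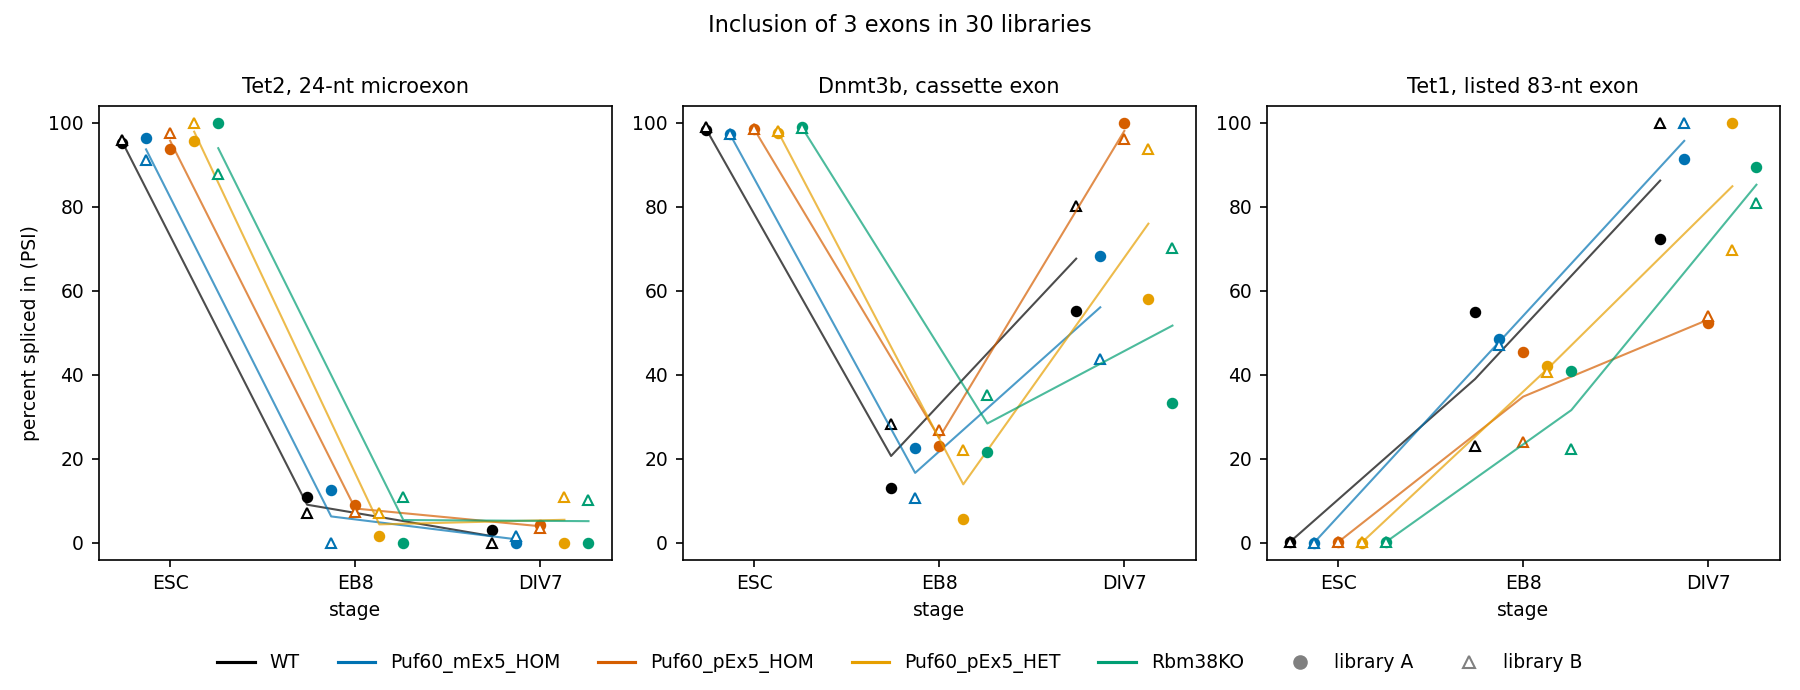
Percent spliced in of the Tet2 microexon, the Dnmt3b exon and the 83-nt Tet1 exon in the 30 libraries, by stage and line, with lines through the group means. The Tet2 exon stays low after ESC, the Dnmt3b exon is spread from 33.3% to 100% at DIV7, and the Tet1 exon climbs from near 0% at ESC.

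Of the other tested events, a pair near the 3′ end of Tet1 was called in some edited lines. A 5′ splice site 54 nt further was used at 14.6% to 20.5% in stem cells, 15.2% to 33% in embryoid bodies and 28.7% to 45.1% in neurons, and was called in Puf60_mEx5_HOM from ESC to EB8 (10.1 points, adjusted p = 0.037) and in Rbm38KO from EB8 to DIV7 (20.8 points, adjusted p = 0.0094). The 165-nt intron at chr10:62813413-62813577 was retained at 9.68% to 13.1%, 9.68% to 23.6% and 25.9% to 40.4%, and was called from EB8 to DIV7 in Puf60_pEx5_HOM (21.4 points, adjusted p = 0.0042) and Rbm38KO (21.1 points, adjusted p = 0.0027). These events lie side by side and share reads, so they do not count as separate observations.

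The only tested events of Tet3, Dnmt1 and Uhrf1, all uncalled, were the Tet3 exon shown above, a 3-nt alternative 3′ splice site of Dnmt1 and a 9-nt alternative 5′ splice site of Uhrf1. The Tet3 exon had a PSI of 63.0% to 100% in ESC libraries on 24 to 47 reads, 73.7% to 86.9% in EB8 libraries and 76.1% to 88.7% in DIV7 libraries. At EB8 it was at 73.8% and 73.7% in Puf60_pEx5_HOM, below the 83.5% and 81.5% of WT, a difference that did not pass the test. The Dnmt1 site ranged from 40.8% to 53.1% over all 30 libraries, and the Uhrf1 site from 9.99% to 16.6% at ESC and 1.2% to 11.6% at DIV7. Dnmt3a and Dnmt3l had no event in any test.

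Calls between the edited lines and WT were rare in these genes, as they were over all genes. The 4 lines share the WT libraries of a stage, so their comparisons are not independent. Of 96 gene, line and stage combinations 1 was called, against 0.826% of all genes over the 12 comparisons. In all, 8 of the 96 reached an adjusted p below 0.05, against 5.49% of all genes, and 19 an unadjusted p below 0.05, against 15.3% of all genes.

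The called difference was Dnmt3l in Puf60_pEx5_HOM neurons, at 9.32 and 9.64 CPM against 0.679 and 1.55 CPM in WT (2.34 ± 0.66, adjusted p = 0.024, where 0.868% of all genes were called higher). The libraries did not overlap, but the call was lost on leaving out either Puf60_pEx5_HOM library (adjusted p = 0.0787 without A and 0.106 without B) or WT library A (0.186). In the authors' deposited table the log2 fold change was 2.82 with an FDR of 0.0748. Dnmt3b was at 16.6 and 87.6 CPM in the same neurons against 8.14 and 11 CPM in WT (1.92 ± 0.77, adjusted p = 0.10), and the authors' deposited table gives it 2.49 with an FDR of 0.0272. Library B of Puf60_pEx5_HET stood out likewise, with Dnmt3b at 44.0 CPM against 5.15 in library A, Dnmt3l at 8.23 against 1.38 and Uhrf1 at 80.1 against 40.4.

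Most pluripotency markers moved with these values at DIV7. Of the 9 with reads, 8 were above both WT libraries in both Puf60_pEx5_HOM libraries, and 7 were in library B of Puf60_pEx5_HET, with 3 in its library A and 2 below WT in each of these HET libraries. Klf4 went the other way, at 2.84 and 3.35 CPM in Puf60_pEx5_HOM and 2.81 and 4.51 in Puf60_pEx5_HET against 17.9 and 9.57 in WT, and Tfcp2l1 was low in both groups, at 1.56 and 1.17 CPM in Puf60_pEx5_HOM against 1.00 and 0.957 in WT. Their summed level over the 9 markers was 172 and 250 CPM in Puf60_pEx5_HOM, 71.1 and 166 in Puf60_pEx5_HET, 66.9 and 68.8 in WT, 46.7 and 46.3 in Puf60_mEx5_HOM and 50.9 and 75.4 in Rbm38KO. Pou5f1, a defining factor of pluripotent cells, was at 38.1 and 75.6 CPM in Puf60_pEx5_HOM and 6.33 and 53.4 CPM in Puf60_pEx5_HET, against 3.46 and 8.76 CPM in WT. Nanog, another such factor, was at 7.69 and 10.4, 1.84 and 9.03, and 0.821 and 1.29 CPM in these groups. The part of these markers in the Dnmt3l and Dnmt3b values was not tested. Without the B libraries of both Puf60_pEx5 lines, Dnmt3l in Puf60_pEx5_HOM was 2.32 above WT (adjusted p = 0.0671), a comparison added after the data were seen.

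**Figure D4:**
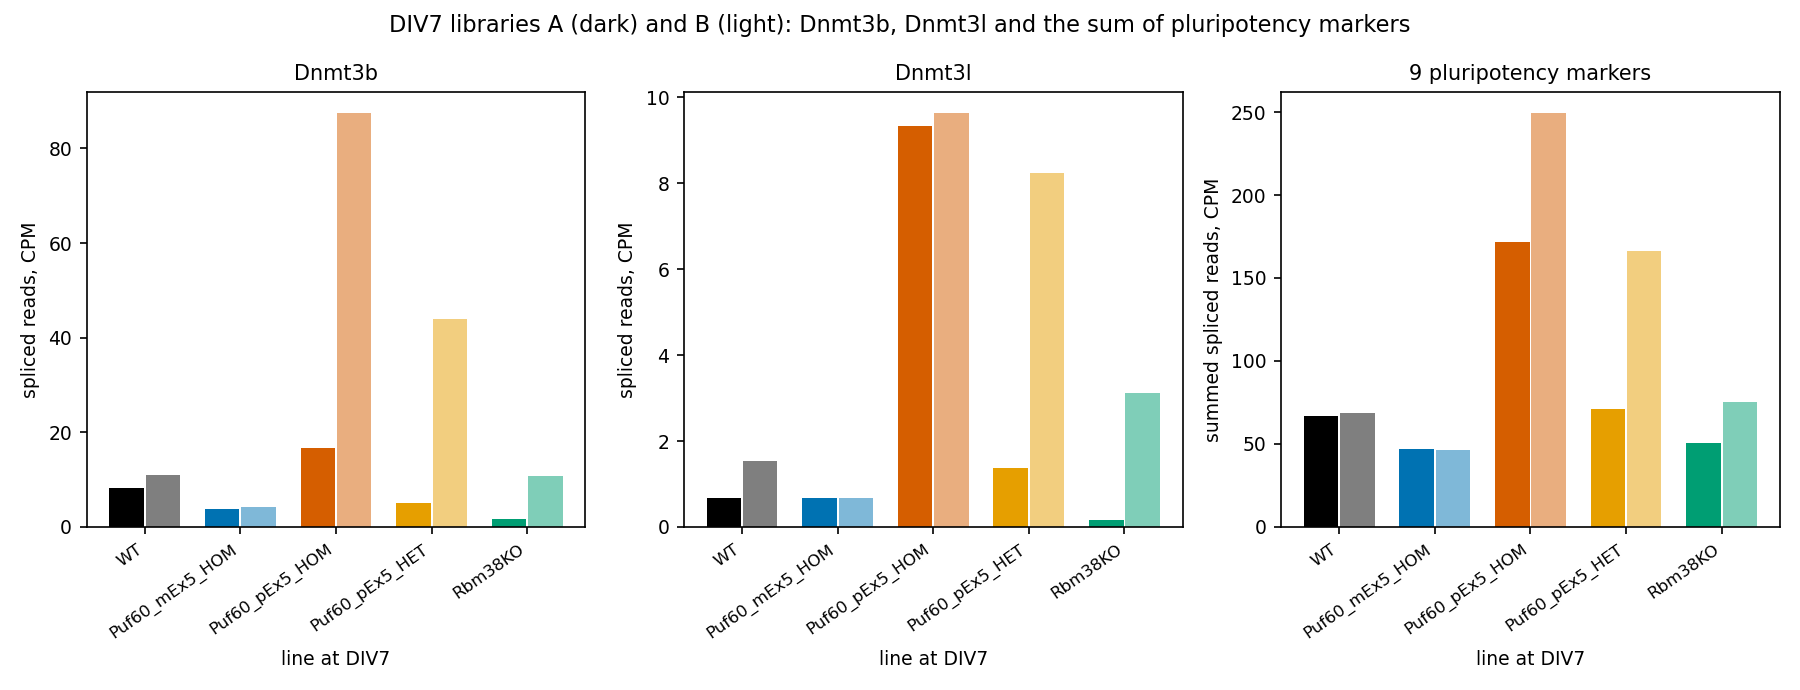
Bars of Dnmt3b, Dnmt3l and the sum of 9 pluripotency markers in each of the 10 DIV7 libraries, as normalised spliced reads (CPM), with library A dark and library B light. Both Puf60_pEx5_HOM libraries and library B of Puf60_pEx5_HET have the highest marker sums, 172, 250 and 166, and the highest Dnmt3b and Dnmt3l bars.

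In ESC, 4 of the 8 genes had an adjusted p below 0.05 in Puf60_pEx5_HOM with less than 2-fold, where 17.6% of all genes reached that p. Tet1 was at 129 and 134 CPM against 110 and 84.1 in WT (0.44 ± 0.13, adjusted p = 0.020) and Tet2 at 33.9 and 36.7 against 24.3 and 23.9 (0.53 ± 0.13, adjusted p = 0.0064). Dnmt3a was at 264 and 201 CPM against 347 and 297 (-0.48 ± 0.15, adjusted p = 0.031) and Tet3 at 4.97 and 4.20 against 7.46 and 7.03 (-0.56 ± 0.14, adjusted p = 0.0075). The libraries did not overlap with WT for 8 of the 8 genes, nor for 61.1% of all genes in this comparison. Marker sums differed between the same libraries: pluripotency markers were at 5819 and 5930 CPM against 4499 and 4692 in WT, 6 neural progenitor markers at 324 and 238 against 468 and 577, and 7 fibroblast and smooth muscle markers at 66.6 and 38.5 against 291 and 426. Their part in these values was not tested.

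At EB8 Uhrf1 and Dnmt1 in Puf60_mEx5_HOM, and Dnmt1 in Puf60_pEx5_HOM, had an adjusted p below 0.05 against WT, again with less than 2-fold. These were 2 and 1 of the 8 genes, near the shares of all genes given below. In Puf60_mEx5_HOM, Uhrf1 was at 139 and 140 CPM against 287 and 239 (-0.90 ± 0.21, adjusted p = 0.0059) and Dnmt1 at 353 and 389 against 477 and 453 (-0.33 ± 0.09, adjusted p = 0.013). Of all genes, 18.2% had an adjusted p below 0.05 in that line. Puf60_pEx5_HOM had more Dnmt1, at 509 and 657 CPM (0.31 ± 0.09, adjusted p = 0.026), where 10.2% of all genes reached that p. Uhrf1 in Puf60_pEx5_HOM, at 278 and 370 CPM, overlapped WT. In the 3 cases with that p the line and WT did not overlap, which also held for 63.3% of all genes in Puf60_mEx5_HOM and 54.0% in Puf60_pEx5_HOM. The summed 10 neuronal markers differed in the opposite direction, at 1987 and 2271 CPM in Puf60_mEx5_HOM and 990 and 836 in Puf60_pEx5_HOM against 1305 and 1450 in WT. The fibroblast and smooth muscle markers were at 751 and 341 CPM, 84.8 and 75.4, and 287 and 148 in these groups. Their part in the Uhrf1 and Dnmt1 values was not tested. Whether the step of a line differed from that of WT was tested as an interaction: 0 of 64 passed limma's test and 7 had an unadjusted p below 0.05, against 1.33% of all genes called and 14.8% with such an unadjusted p. The largest of the 7, Uhrf1 from ESC to EB8 in Puf60_mEx5_HOM, was -0.77 (adjusted p = 0.14). For intron use, 0 of 1692 intron and line comparisons passed (19 with an unadjusted p below 0.05, 0.0123% of all introns called), and for splicing 0 of 188 (5 with an unadjusted p below 0.05, 0.575% of all events called).

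Genes that work with the family were examined by list, in WT, with the median of ratios as the scaling. The other 2 scalings, which moved Uhrf1 and Dnmt1 toward 0 from ESC to EB8, were not applied to the lists. Smaller changes at that step may therefore depend on the scaling. For comparison, 18.2% of all genes fell and 21.7% rose from ESC to EB8, and 12.7% fell and 17.6% rose from EB8 to DIV7. Of 8 genes listed for maintenance methylation, among them Dppa3, which opposes it, 6 fell from ESC to EB8 and 5 from EB8 to DIV7. Their median changes were -1.33 and -1.10, against 0.03 and 0.02 for all genes. Hells, a chromatin remodeller needed for methylation of repeats, fell by 2.36 and 2.52. Cdca7, which recruits Hells, changed by -2.93 at the later step, and Usp7, a deubiquitinase that stabilises Dnmt1, by -1.41 at the earlier one. Dppa3, which displaces Uhrf1 from chromatin, fell by 4.33 at the earlier step and was 1.70 higher in Puf60_pEx5_HOM neurons than in WT (adjusted p = 0.0044). Of 23 genes of replication and the cell cycle, 15 fell at the earlier step and 23 at the later one (medians -1.32 and -1.89), among them Mcm3, a subunit of the replicative helicase, which changed by -1.78 and -2.33.

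Of 8 genes that supply methyl groups, 6 and 4 fell (medians -1.36 and -1.16). Shmt1, which feeds 1-carbon units into folate, changed by -2.65 and -2.21, and Ahcy, which clears the product that inhibits methyltransferases, by -1.99 and -1.49. Of 16 genes listed for the targeting of methylation, 7 and 4 fell and 0 rose (medians -0.78 and -0.55). The list mixes genes that promote methylation with genes that counter it, so its counts give no direction for targeting. Dppa2 and Dppa4, which bind CG-rich promoters in stem cells, changed by -5.32 and -4.78 at the earlier step. Prdm14, a repressor of Dnmt3b and Dnmt3l, changed by -3.52 there, and Ezh2, the Polycomb methyltransferase, by -2.54 at the later step. Dppa2 and Dppa4 were 1.95 and 1.91 higher in Puf60_pEx5_HOM neurons than in WT (adjusted p = 0.019 and 0.022), the group with high pluripotency markers.

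The remaining lists differed from each other at the earlier step. At the later step more genes fell than rose in the lists for repair and germline genes. Of 8 tested readers of methyl-CG, 2 rose at the earlier step (median 0.57), and 1 rose and 1 fell at the later one (median -0.16), counts near the shares of all genes. Zbtb4, a zinc finger reader, rose by 2.39 and 1.71, Mbd1 rose by 1.21 at the earlier step, and Mbd4, a glycosylase, fell by 1.31 at the later one. Of 18 genes of oxidation and base excision repair, 4 fell and 5 rose at the earlier step (median 0.02), and 8 fell and 0 rose at the later one (median -0.88). Cxxc4, which binds Tet2, rose by 2.82 and the uracil glycosylase Ung fell by 2.95 at the earlier step, while Smug1, a related glycosylase, rose by 2.98 and then fell by 1.97. Of 15 germline genes whose promoters are known to be methylated in somatic cells, 6 fell and 4 rose at the earlier step (median -0.33), and 10 fell and 1 rose at the later one (median -1.31). Dazl, an RNA-binding protein of germ cells, rose by 2.10 and then fell by 3.49, and Sycp3, of the synaptonemal complex, fell by 2.80 at the earlier step and was 1.27 higher in Puf60_pEx5_HOM neurons than in WT (adjusted p = 0.024).

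The genes with the most similar course were found by Pearson r of mean log2(CPM + 1) over the 15 groups, which share stages and WT libraries, so r mostly reads the stage steps. Closest to Dnmt3l was Foxh1 (r = 0.998), to Dnmt3b Plcg2 (0.996), to Dnmt3a Rars2 (0.969), to Dnmt1 Lrig3 (0.997) and to Uhrf1 Cks2 (0.9995), with Timeless and Cdc20 next. Closest to Tet1 was Dnajc21 (0.998), to Tet2 Kxd1 (0.975) and to Tet3 Zfp618 (0.999). Dnmt3a and Tet2 had the lowest best match of the 8.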

How the data were processed

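RNA was sequenced in 30 libraries (3 stages, 5 lines, 2 libraries each). The authors deposited gene levels as 1 RPKM value per group and, in the same table, their own log2 fold changes, p-values and FDR of the edited lines, per the file headers. Another deposited table gives group values of percent spliced in, treated as a score because some exceed 100, and calls of another kind, per the file headers. It was not used for the tests. The authors' vast-tools table gives percent spliced in per library, with other quality fields that hold read numbers, per the file headers. Named without roles are Salmon 0.14.1, edgeR and mm10, per the submitters' processing notes. The strand setting of the counting is not given in the sources used here, so reads of overlapping antisense genes may not be told apart.

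Expression was taken from spliced reads: junction reads over each gene's introns (189118 introns, 25626 genes) were summed per library and scaled by median of ratios. Genes with at least 1 CPM in 2 libraries were fitted as log2(CPM + 1) with limma 3.58.1 (trend, robust; R 4.3.3) over 15 group means, leaving 15 residual degrees of freedom. 0 introns share a splice site with an intron of another gene. Intron use was tested with diffSplice on introns with a mean of at least 10 reads, and splicing with 1 read added to inclusion and exclusion reads. The scripts were tested on simulated data. Calls, thresholds and adjustment over all features are given with the results. The 8 genes, the lists and the tests were chosen with earlier results of these data known. Named were the 8 genes, their Tet2 microexon, called events and introns, each gene's most variable tested event, the 3 genes of most similar course, up to 3 called members of each list per WT step by size, and list members called in an edited line. Not all genes meeting the rule are printed. Alternatives covered scaling, filters, pseudocounts, weights, a replicate block and leaving out each library.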

Additional observations from a re-analysis of the deposited data

How the results depend on the processing

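Of 991 recomputed values, 943 were rated the same as the main result. For single tests this meant the same direction and side of the threshold. For counts it meant a change within a set ratio, and for RPKM ratios a distance set by the standard error. The 4 genes called lower in WT from ESC to EB8 ranged from 3 to 4, which was rated the same. Many of the 991 left out 1 library that was not part of the comparison. Genes called over the 12 line comparisons numbered 1382, 2373 with 0.25 added to the CPM, 2336 with voom weights, and 1067 to 2083 on leaving out 1 library. Of the 8 genes, line calls numbered 1 and became 0 using the stage's own libraries, with voom weights or without both B libraries of the Puf60_pEx5 lines at DIV7, and 2 with quantile normalization (0 to 2 leaving out 1 library: 0 without library B of Puf60_pEx5_HOM or A of WT at DIV7, 2 without A or B of Puf60_pEx5_HET at DIV7 or B of WT at EB8). The call of Dnmt3l had an adjusted p of 0.109 with the stage's own libraries and 0.0723 with voom. Step differences called numbered 0, and 1 with quantile normalization (0 to 1 leaving out 1 library). Introns called in lines ranged from 0 to 1 on leaving out 1 library, with 1 without library A of Puf60_pEx5_HOM at ESC. The 1 event called in WT from EB8 to DIV7, in Tet1, became 0 with 0.5 reads added, 20 reads required or no limit on PSI (0 to 1 leaving out 1 library), and the 3 events from ESC to EB8 became 1 with 20 reads required (3 to 4 leaving out 1 library). Tet2 from EB8 to DIV7 in WT was -0.06 and ranged from -0.1184 to 0.00171 on leaving out 1 library, with the change of sign without library A of WT at DIV7 (adjusted p = 0.994). A group left with 1 library is assumed to vary like the other groups.

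The letters A and B were given to libraries in every group. Deviations of same-letter libraries correlated between lines at 0.32 to 0.53 in stem cells, -0.26 to 0.62 in embryoid bodies and -0.21 to 0.60 in neurons, over 10 pairs of lines each. In stem cells, then, libraries of a letter deviated together, and Dnmt3a, Dnmt3b, Dnmt3l and Uhrf1 were higher in A than in B in 5 of 5 lines. At the later stages they did not in every pair, and no label says what a letter marks. With the replicate block (letter within stage), 0 line calls were made among the 8 genes in stem cells. Over all stages the line calls among these 8 genes became 2 by adding Dnmt3b in Puf60_pEx5_HOM at DIV7 (1.92, adjusted p = 0.0132). Genes called lower from EB8 to DIV7 in WT became 2 by adding Dnmt3b (-1.14, adjusted p = 0.0482). Splicing was refitted with a block for the letter alone, not within stage, and the Tet1 event was then no longer called (0 events, adjusted p = 0.0517). The cause of these changes was not tested. Depth limits the low genes: Dnmt3l after ESC and Tet1 intron 2 at DIV7 rest on few reads.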
